A study of Mus musculus with 18 samples.

Results

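Cytoplasmic transport along microtubules is carried by 2 classes of motor, and the transcripts of both were followed here: the kinesin heavy and light chains (gene symbols starting Kif or Klc and a digit), the chains of the dyneins (Dync and Dynl) and the subunits of dynactin (Dctn). Genes were chosen by symbol alone, with no measured value, from the gene column of the deposited isoform count table; pseudogene labels and labels joining neighbouring genes were left out. The rule found 63 of 17714 gene labels, with 639 of 114425 isoforms and 35079 of 10234812 reads (0.343%). By role these were 7 kinesin-1 genes, 4 of kinesin-2, 6 of kinesin-3, 9 kinesins of cell division, 11 other kinesins, 9 dynein heavy, intermediate and light intermediate chains, 11 dynein light chains and 6 dynactin subunits.

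The study sequenced full-length mRNA, by PacBio bulk Iso-Seq, from primary mouse astrocytes, microglia and neurons in culture and from the small extracellular vesicles (sEVs) that each culture released. It asked whether each cell type packages its own set of mRNAs into sEVs. The 6 groups were astrocyte cells, microglia cells, neuron cells, astrocyte sEVs, microglia sEVs and neuron sEVs, with 3 libraries each. The labels name brain as the tissue and primary culture as the source of every group, and name no treatment, genotype, strain or age. The labels do not say whether the 3 libraries of a group came from separate cultures, so each p-value measures only the spread between these samples, which may be technical.

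Kinesins are motors that mostly walk toward the plus end of microtubules, which in an axon points away from the cell body, whereas cytoplasmic dynein walks toward the minus end. Kinesin-1 is a pair of heavy chains (Kif5a, Kif5b, Kif5c) bound to light chains (Klc genes) and carries organelles and protein complexes; kinesin-3 motors such as Kif1a carry synaptic vesicle precursors; kinesin-2 (Kif3 genes) and dynein-2 also serve transport inside cilia. Cytoplasmic dynein needs dynactin and a cargo adaptor to move over long distances, and its intermediate, light intermediate and light chains link the motor to dynactin and to cargo.

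Libraries held 434298 to 683381 reads. Cell libraries and sEV libraries were sequenced as separate pools, so wherever sEVs are set against cells the fraction and the pool cannot be told apart. In bulk RNA, fewer cells of a type and less RNA per cell cannot be told apart either. The labelled cell types carried their markers: the 10 astrocyte markers summed to 20001 to 21719 reads per 1000000 of the library size (CPM) in astrocyte cells, the 10 microglia markers to 9058 to 15109.9 in microglia cells, where Cx3cr1 was at 0, and the 10 neuron markers to 5162 to 6341 in neuron cells. Microglia markers were at 0 in neuron cells, all 10 of them, and at most 2.87 CPM in astrocyte cells. Other lineages were present: the 8 oligodendrocyte lineage markers, all detected, summed to 3992 to 7481 CPM in astrocyte cells and 508 to 1405 in neuron cells, and the 10 astrocyte markers, all detected, to 2489 to 2774 CPM in neuron cells. Their part in the results was not tested. One gene, Ftl1, took 4.47% to 31.5% of reads in sEV libraries and 0.441% to 2.16% in cell libraries. Astrocyte sEV replicate 1 and neuron sEV replicate 1 stood apart by carrying 6.76% and 8.94% of their reads on the noncoding label Gm42047, and results were also computed without both.

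The motor genes took a larger share of reads in neuron material than in the glial cultures. Their share was 0.522% ± 0.066 of reads in neuron cells and 0.574% ± 0.130 in neuron sEVs (SD, n = 3 libraries, as for every mean below). It was 0.276% ± 0.037 in astrocyte cells, 0.320% ± 0.070 in astrocyte sEVs, 0.118% ± 0.008 in microglia cells and 0.221% ± 0.011 in microglia sEVs. The 3 cell groups did not overlap, nor did the sEVs of microglia with those of either other type; astrocyte and neuron sEVs did not overlap, with 0.386% as the highest astrocyte and 0.433% as the lowest neuron library. From here on a level is given in CPM of the TMM-scaled library size. Levels are compared within a gene, between groups, and not between genes.

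Of the 63 genes, 34 had enough reads to be tested among 8184 genes, 29 did not, and 10 had under 20 reads in all 18 libraries together. Tested by role were 6 of 7 kinesin-1 genes, 3 of 4 kinesin-2, 3 of 6 kinesin-3, 1 of 9 division kinesins (Kif22), 2 of 11 other kinesins (Kif2a and Kif21a), 7 of 9 dynein heavy, intermediate and light intermediate chains, 6 of 11 light chains and all 6 dynactin subunits. 14 of the 63 had reads in every library. Every gene's test came from 1 edgeR quasi-likelihood fit of all 18 libraries, with Benjamini-Hochberg adjustment over the 8184 genes; "adjusted p" below means that value, and a call is an adjusted p under 0.05.

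Among cell types, neuron cells had the most motor genes called higher. Against the mean of the other 2 cell types, 14 of the 34 tested motor genes changed in neuron cells, 13 higher and 1 lower, where 27.4% of all tested genes changed (19.7% higher, 7.66% lower). The median motor gene was 1.06 higher in neuron cells on the log2 scale, beside 0.34 for all tested genes. In microglia cells 14 changed, 1 higher and 13 lower, beside 42.4% of all tested genes (18% higher, 24.4% lower), and the median was -1.46 beside -0.66. In astrocyte cells 2 changed, both higher (Dync2li1 and Dynll1), beside 15.9% of all tested genes (10.8% higher, 5.1% lower), and the median was 0.04 beside 0.24. With library sizes not scaled by TMM the splits were 18 higher and 0 lower in neuron cells, 0 and 19 in microglia cells and 4 and 0 in astrocyte cells, where the all-gene medians stood at 0.72, -1.43 and 0.63. In astrocyte cells the split was 3 and 2 in DESeq2 and 1 and 1 with RLE size factors. The neuron count fell to 8 without neuron cell replicate 2, the microglia count to 9 without microglia cell replicate 1 or 2, and the astrocyte count to 0 or 1 in 12 of the 18 fits without 1 library. These 3 comparisons share their libraries, so a gene high in 1 cell type tends to be low in the others by construction.

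Among sEVs, those of neurons again had the most motor genes raised and those of microglia the most lowered. Neuron sEVs differed from the mean of the other sEVs at 17 of the 34 genes, 15 higher and 2 lower, beside 38.8% of all tested genes (26.8% higher, 12% lower), with a median of 1.35 beside 0.35. Microglia sEVs differed at 17, 3 higher and 14 lower, beside 50% (20.3% higher, 29.7% lower), with a median of -1.73 beside -0.69. Astrocyte sEVs differed at 5, 3 higher and 2 lower, beside 20% (14.2% higher, 5.74% lower).

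Each kind of sEV was then set against the cells of its own type. In neurons 10 of the 34 changed, 6 higher and 4 lower in sEVs, beside 31.4% of all tested genes (13.6% higher, 17.8% lower). In astrocytes 4 changed, 3 higher and 1 lower, beside 20.3% (8.04% higher, 12.2% lower), and in microglia 3 changed, 2 higher and 1 lower, beside 11.9% (2.7% higher, 9.18% lower). The mean difference over the 3 cell types changed at 10 genes, 5 in each direction, beside 33.9% (14.5% higher, 19.5% lower). As shares, 29.4% of the tested motor genes were called in neurons, 11.8% in astrocytes and 8.82% in microglia, none of them above the share of all tested genes. Without TMM scaling the split was 4 higher and 5 lower in neurons and 4 and 0 in microglia, where the all-gene medians stood at -0.47 and 0.14, and in DESeq2 it was 2 and 2 in microglia. The neuron count was 6 without neuron cell replicate 1, and the microglia count was 0 or 1 in 13 of the 18 fits without 1 library. Dynlrb1 was the only motor gene called higher in the sEVs of all 3 cell types. The share of all tested genes called so was not computed. Its microglia call was lost in 10 of the 18 fits without 1 library and with no filter on low counts. Dync1li2 and Kif13a rose, and Kif1b fell, in the sEVs of astrocytes and neurons.

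**Figure D1:**
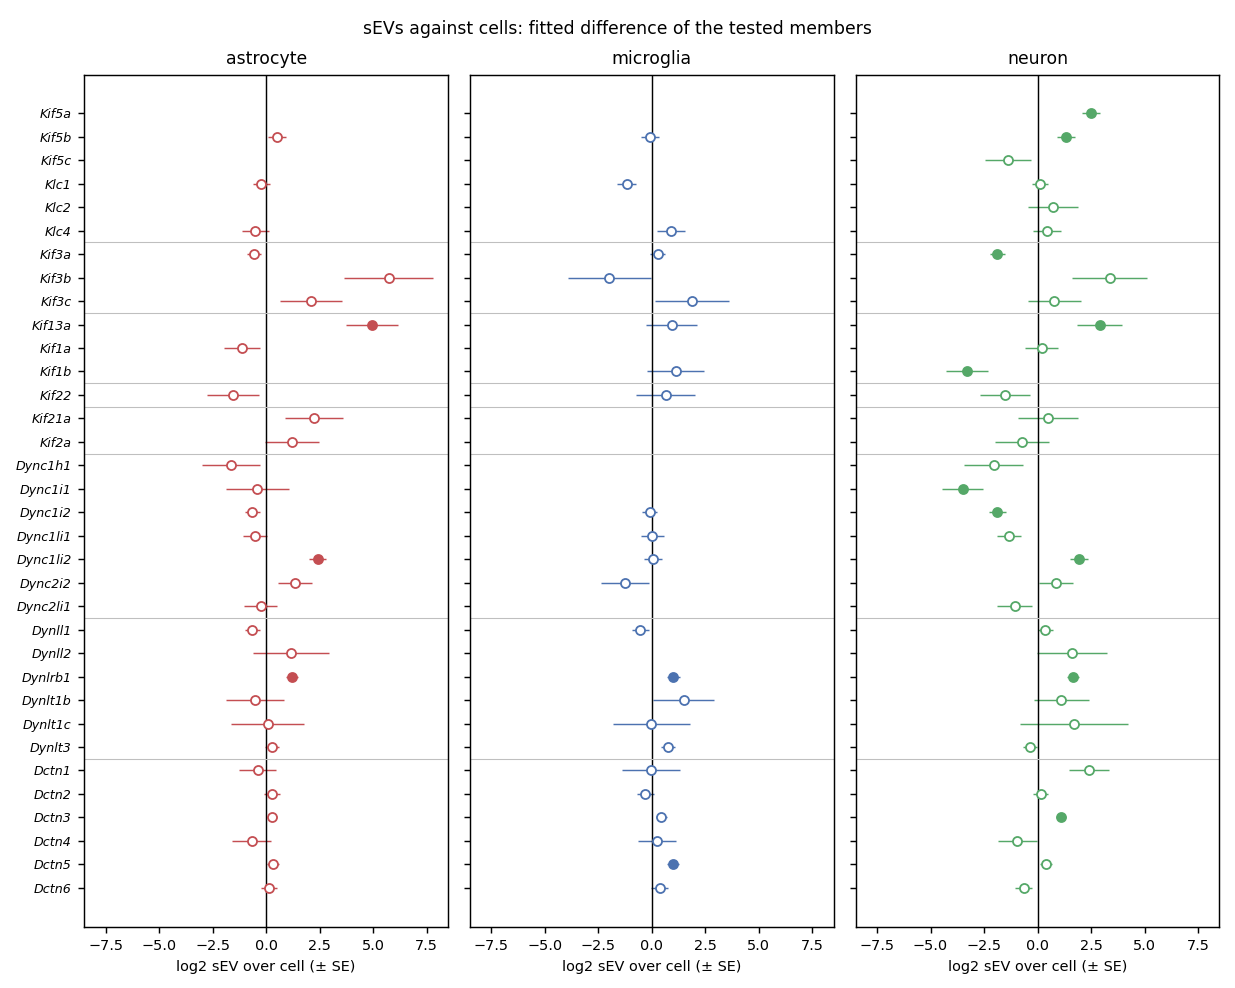
Log2 difference of sEVs against cells (x axis) for the 34 tested motor genes (y axis, ordered by role), in 1 panel per cell type; points are edgeR estimates, bars are ± 1 SE, and filled points have an adjusted p under 0.05. A gene with 0 reads in all 3 libraries of a group is left out of that panel. The neuron panel has 10 filled points, on both sides of 0; the filled points of the astrocyte and microglia panels lie to the right of 0, since the called falls of Kif1b in astrocytes and Dync2li1 in microglia are left out for 0 reads.

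The kinesin-1 heavy chains Kif5a and Kif5c, which are the neuronal forms, were found almost wholly in neuron libraries, and Kif5a rose further in neuron sEVs. Kif5a stood at 202, 119 and 203 CPM in the 3 neuron cell libraries and at 1339.98, 859 and 786 CPM in the 3 neuron sEV libraries. The highest neuron cell library was far below the lowest neuron sEV library, and the other 12 libraries held 2 reads in all, in astrocyte cell replicate 3. Kif5a was 5.69 times higher in neuron sEVs than in neuron cells (log2 2.51 ± 0.42 SE, edgeR adjusted p = 0.00104), and the call was kept in all 26 alternative settings. Here and below, a number of times is the ratio of the groups' mean CPM, whereas the log2 value is the edgeR estimate, so they differ slightly. Kif5c stood at 372, 97.97 and 439.8 CPM in neuron cells and at 139, 0 and 204 CPM in neuron sEVs, with 2 reads in the 6 glial cell libraries and 7 in the 6 glial sEV libraries. Neuron sEV replicate 2 had none, neuron cell replicate 2 was the lowest of its group, and the neuron cell and sEV groups overlapped (log2 -1.40 ± 1.07, edgeR adjusted p = 0.35). Neuron cells exceeded the other cells in Kif5c (edgeR adjusted p = 0.000356), as neuron sEVs exceeded the other sEVs (edgeR adjusted p = 0.00112).

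Kif5b, the widely expressed heavy chain, showed no such confinement. It stood at 140.5, 132 and 113 CPM in astrocyte cells, 195, 204 and 233 in microglia cells and 162, 113 and 154 in neuron cells. In sEVs it stood at 216, 129.997 and 195 CPM for astrocytes, 74.3, 301 and 228 for microglia and 585, 236 and 258 for neurons. Each neuron sEV library exceeded each neuron cell library, with replicate 1 well above the other 2, while the microglia sEV libraries spread on both sides of their cells. The neuron rise was 2.51 times (log2 1.33 ± 0.42, edgeR adjusted p = 0.0233), and the call was lost without neuron cell replicate 1 or 2 or 3 or astrocyte sEV replicate 2 or neuron sEV replicate 1, without TMM scaling and without the 2 libraries rich in Gm42047 (adjusted p up to 0.188).

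Among the kinesin-1 light chains, which bind cargo, Klc1 followed the neuron. It stood at 546, 505 and 492 CPM in neuron cells, 161, 116 and 94.7 in astrocyte cells and 41.5, 76.5 and 38.9 in microglia cells. The 3 cell groups did not overlap. The neuron cells exceeded the mean of the others by 2.67 ± 0.32 (log2 ± SE; edgeR adjusted p = 1.05e-05), a call that was lost with full-splice and incomplete-splice matches alone (adjusted p up to 0.0665). In sEVs the order was the same, at 749.6, 443 and 466 CPM for neurons, 130.5, 77.6 and 109 for astrocytes and 38.1, 7.76 and 23.01 for microglia, and the neuron call was lost with full-splice and incomplete-splice matches alone (adjusted p up to 0.151). Within a cell type, sEV and cell values of Klc1 overlapped for neurons and astrocytes, and none of the 3 differences was called (edgeR adjusted p = 0.765 for astrocytes, 0.106 for microglia and 0.892 for neurons). Klc2 was found at 18.9, 15.3 and 3.28 CPM in neuron cells and 31.5, 18.99 and 12.4 CPM in neuron sEVs, with 2 reads in the other 12 libraries; neuron cells exceeded the others (edgeR adjusted p = 0.016), a call that was lost without neuron cell replicate 1 or 2 (adjusted p up to 0.0686). Klc4 was present in every library, from 25.1 CPM on average in microglia cells to 47.3 CPM in microglia sEVs, with no call in any comparison. Klc3 had 8 reads in all and was not tested.

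**Figure D2:**
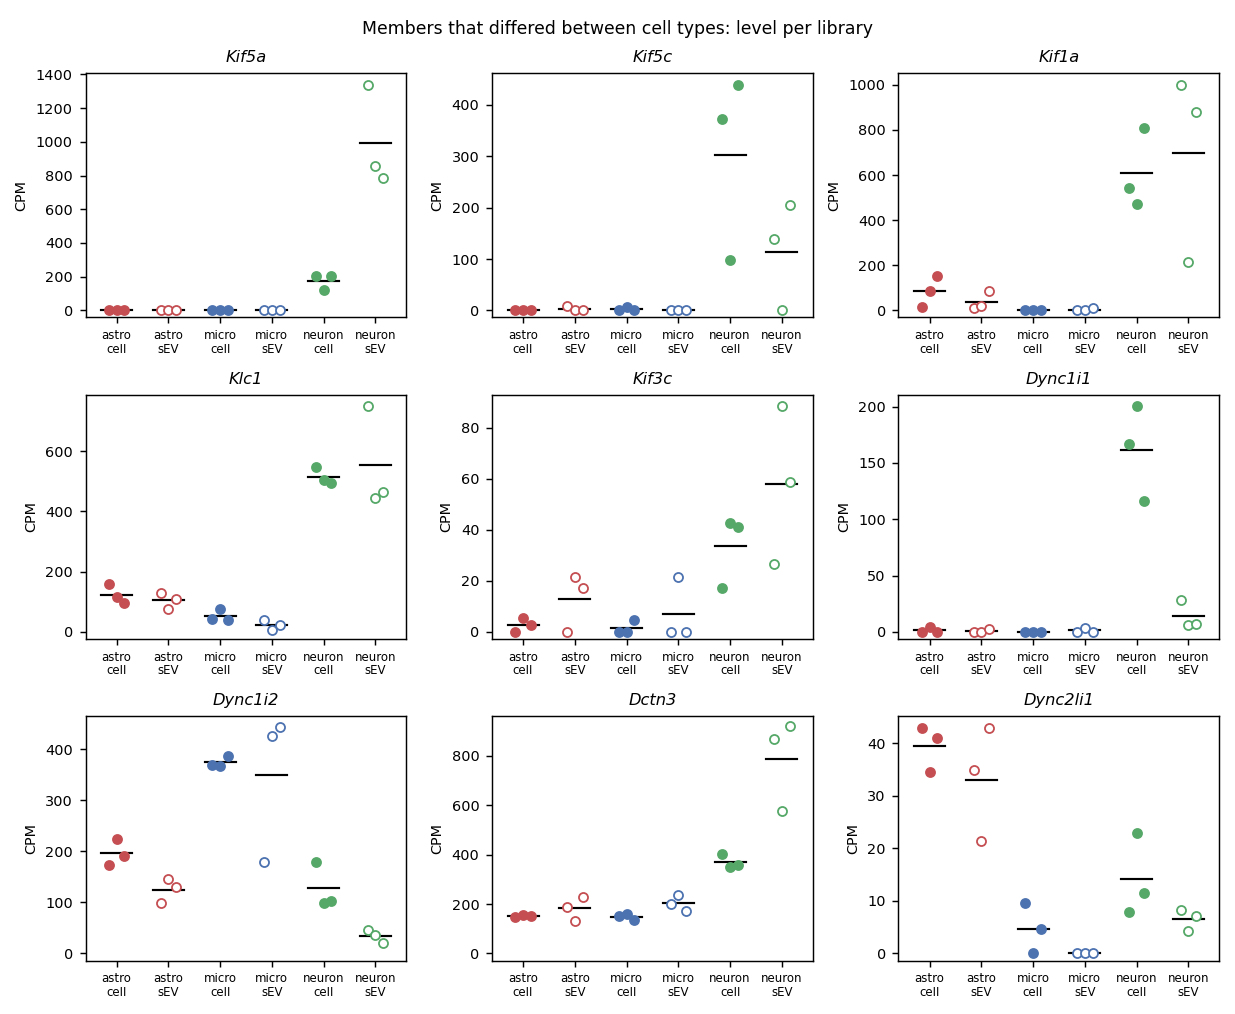
Level in CPM (y axis) of 9 motor genes in the 3 cell types (x axis), 1 panel per gene; each point is a library, filled for cells and open for sEVs, and bars are means of 3. Kif5a, Kif5c, Kif1a, Klc1, Kif3c, Dync1i1 and Dctn3 have their highest points in neuron libraries, Dync1i2 in microglia libraries and Dync2li1 in astrocyte libraries.

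The kinesin-3 motors split by fraction, with Kif13a higher and Kif1b lower in the sEVs of astrocytes and of neurons. Kif13a, a motor of endosomal and secretory cargo, had 4 reads in the 3 astrocyte cell libraries and stood at 37.5, 95.1 and 61.6 CPM in astrocyte sEVs. It stood at 3.15, 7.65 and 14.8 CPM in neuron cells and 76.3, 52.7 and 65.8 CPM in neuron sEVs, and at 0, 0 and 13.7 CPM in microglia cells and 21.7, 7.76 and 0 CPM in microglia sEVs. Astrocyte and neuron sEVs lay above all of their cells, while the microglia groups overlapped. The rise was called for astrocytes (edgeR adjusted p = 0.00817) and was kept in all 26 alternative settings. For neurons it was 7.62 times (log2 2.90 ± 1.07, edgeR adjusted p = 0.0469), but that call was lost in 12 of the 18 fits without 1 library, without TMM scaling, with a replicate block, with full-splice and incomplete-splice matches alone and without the 2 libraries rich in Gm42047 (adjusted p up to 0.166). The cell counts behind these values were small, at 4 reads in astrocyte cells and 16 in neuron cells.

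Kif1b, which carries mitochondria and synaptic vesicle precursors in its different isoforms, moved the other way. It stood at 20.1, 102 and 169.5 CPM in astrocyte cells and had no read in the 3 astrocyte sEV libraries, so it was at least 20.9-fold lower there, taking a floor of 3 reads per library (edgeR adjusted p = 0.00225). In neurons it stood at 328, 110.2 and 373 CPM in cells and 43.1, 14.8 and 23.1 CPM in sEVs. No neuron sEV library reached a neuron cell library, and the level was 10.01 times lower in sEVs (log2 -3.30 ± 1.00, edgeR adjusted p = 0.0205). The astrocyte call was kept in all 26 alternative settings, and the neuron call was lost without neuron cell replicate 1 or 3 or neuron sEV replicate 2 or 3 (adjusted p up to 0.074). In microglia Kif1b stood at 6.39, 5.66 and 4.58 CPM in cells and 36.2, 0 and 0 CPM in sEVs, where 1 library held all 20 sEV reads. The difference between cell types was not called (interaction, edgeR adjusted p = 0.0543).

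Kif1a, the main axonal carrier of synaptic vesicle precursors, was highest in neurons in both fractions. It stood at 543, 472 and 811 CPM in neuron cells and 1002, 215 and 879.9 CPM in neuron sEVs. Astrocyte cells held 14.3, 87.3 and 151 CPM and astrocyte sEVs 11.6, 17.5 and 85.98 CPM, while microglia held 6 reads, all in sEV replicate 3. Neuron cells lay above all astrocyte cells, and neuron cells and neuron sEVs overlapped, with sEV replicate 2 lowest. Neuron cells exceeded the mean of the others (edgeR adjusted p = 0.000136), as neuron sEVs did among sEVs (edgeR adjusted p = 3.66e-05); the neuron sEV difference from cells was 0.20 ± 0.77 on the log2 scale (edgeR adjusted p = 0.907). The remaining kinesin-3 genes Kif14, Kif16b and Kif1c had 6, 22 and 24 reads in all.

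Kif3a, the shared motor subunit of heterotrimeric kinesin-2, fell in neuron sEVs. It stood at 137, 113 and 131 CPM in neuron cells and 34.8, 42.2 and 26.7 CPM in neuron sEVs. In astrocytes it stood at 91.7, 94.2 and 64.98 CPM in cells and 60.7, 60.1 and 47.3 CPM in sEVs, and in microglia at 38.3, 28.3 and 43.5 CPM in cells and 39.9, 36.9 and 55.9 CPM in sEVs. The sEV libraries lay below their cells for neurons and astrocytes, with no overlap, and overlapped them for microglia. The neuron fall was 3.68 times (log2 -1.88 ± 0.35, edgeR adjusted p = 0.000598) and the call was kept in all 26 alternative settings. The astrocyte difference was -0.58 ± 0.33 on the log2 scale (edgeR adjusted p = 0.249) and the microglia difference 0.27 ± 0.36 (edgeR adjusted p = 0.77). Kif3a was also the 1 motor gene of the 34 whose sEV difference was called as unequal between cell types (edgeR interaction adjusted p = 0.0447), beside 3.96% of all tested genes; that call was lost in 14 of the 18 fits without 1 library, with no filter on low counts, with a replicate block, with full-splice and incomplete-splice matches alone and without the 2 libraries rich in Gm42047 (adjusted p up to 0.294).

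In the sEVs of astrocytes and neurons, Kif3b and Kif3c, the partners of Kif3a, varied more between libraries than Kif3a did. Kif3c, which pairs with Kif3a in neurons, stood at 17.3, 42.9 and 41.03 CPM in neuron cells and 26.5, 88.6 and 58.7 CPM in neuron sEVs, beside at most 5.54 CPM in any glial cell library. In the glial sEVs it stood at 0, 21.3 and 17.2 CPM for astrocytes and 0, 21.4 and 0 CPM for microglia. Neuron cells exceeded the others (edgeR adjusted p = 0.0237), a call that was lost in 6 of the 18 fits without 1 library (adjusted p up to 0.0753). Neuron sEVs were not called against the other sEVs (edgeR adjusted p = 0.0627). Kif3b stood at 0, 107 and 77.4 CPM in astrocyte sEVs and 179, 18.99 and 0 CPM in neuron sEVs, so that 1 library of each group had no read, and it was called in no comparison. Kif17 had 16 reads in all.

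The kinesins of cell division, which build and pull apart the mitotic spindle, were scarce, and Kif22 alone of the 9 was tested. Their summed level was 91.9 ± 37.5 CPM in neuron cells, 37.2 ± 23.1 in astrocyte cells and 9.76 ± 11.8 in microglia cells. In sEVs the sums were 68.8 ± 34.1, 34.5 ± 23.4 and 17.2 ± 8.55 CPM for neurons, astrocytes and microglia. Within each cell type the 2 fractions overlapped. The 10 markers of dividing cells summed to 309 ± 93.7 CPM in neuron cells, 182 ± 72.1 in astrocyte cells and 512 ± 58.9 in microglia cells, and to 324 ± 103 in neuron sEVs, 219 ± 27.3 in astrocyte sEVs and 458 ± 40.9 in microglia sEVs. That order, with microglia highest, was not the order of these kinesins, and its part in their levels was not tested. All 10 markers were detected in every group except microglia cells, where Aurkb was at 0. Kif22, which moves chromosome arms, stood at 47.3, 12.2 and 44.3 CPM in neuron cells and 16.6, 10.5 and 8.89 CPM in neuron sEVs, and no comparison of it was called.

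Of the other 11 kinesins, Kif2a and Kif21a were tested. Kif21a, which restrains microtubule growth, stood at 33.6, 34.9 and 21.5 CPM in astrocyte sEVs and 10.03, 5.54 and 2.83 CPM in astrocyte cells, and had no read in microglia. Every astrocyte sEV library was above every other library, and astrocyte sEVs exceeded the other sEVs (edgeR adjusted p = 0.0171), a call that was kept in all 25 alternative settings; the difference from astrocyte cells was 2.25 ± 1.35 on the log2 scale (edgeR adjusted p = 0.274). Kif2a, which depolymerises microtubules, had no read in microglia cells and stood at 0, 12.5 and 22.6 CPM in astrocyte cells and 31.5, 6.12 and 22.97 in neuron cells. Microglia cells were called lower (edgeR adjusted p = 0.0263), a call that was lost without microglia cell replicate 1 or 2 or 3 (adjusted p up to 0.081). Kif21b, with 105 reads the highest of the genes not tested, had 99 of them in neuron sEV replicate 2. Kif26b had 26 reads, all in neuron sEVs and in all 3 libraries of that group, and Kif7 had 27 of its 36 reads in astrocyte sEVs.

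**Figure D3:**
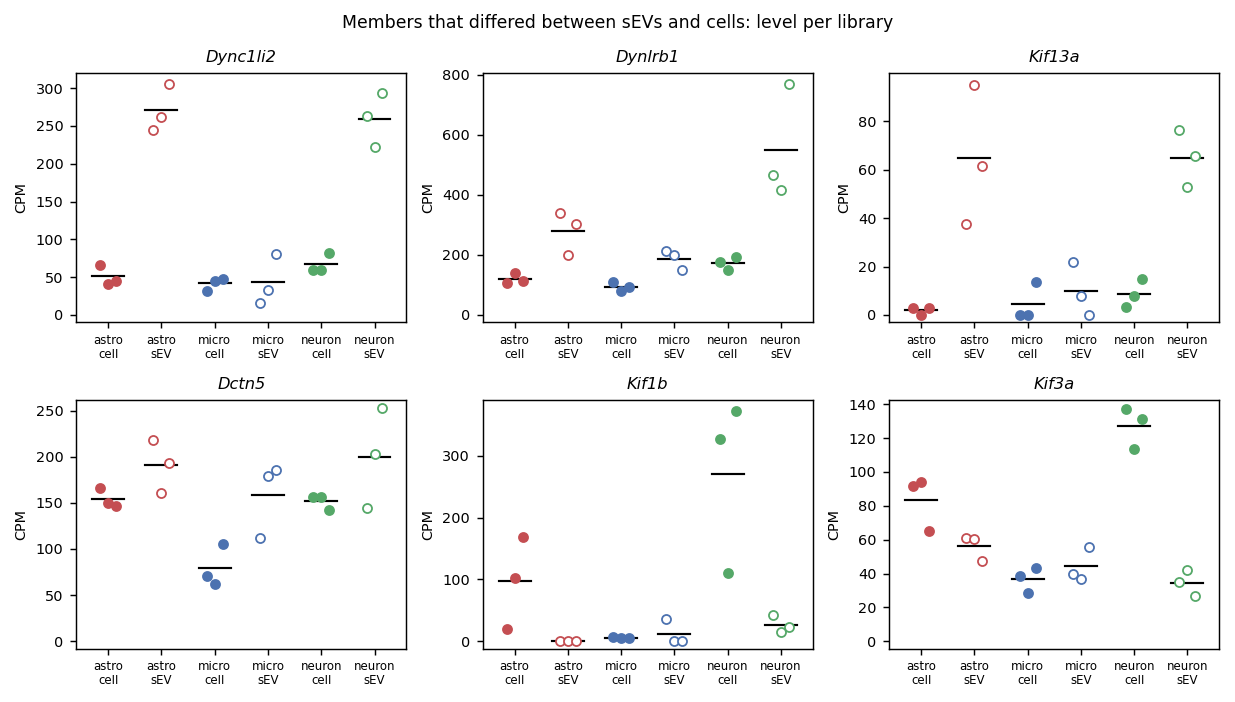
Level in CPM (y axis) of Dync1li2, Dynlrb1, Kif13a, Dctn5, Kif1b and Kif3a in the 3 cell types (x axis), 1 panel per gene; each point is a library, filled for cells and open for sEVs, and bars are means of 3. Open points lie above filled points for Dync1li2 in astrocytes and neurons and for Dynlrb1 in all 3 cell types, and below them for Kif1b and Kif3a in astrocytes and neurons.

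The 2 genes of the cytoplasmic dynein intermediate chain, the subunit that binds dynactin, ran in opposite directions across cell types. Dync1i1 was a neuron transcript, at 167, 201 and 117 CPM in neuron cells against 3 reads in the 6 glial cell libraries. Dync1i2 was highest in microglia cells, at 370.4, 368 and 387 CPM, beside 173, 224 and 191 in astrocyte cells and 179.8, 99.5 and 103 in neuron cells. Microglia cells did not overlap either other group, while astrocyte and neuron cells overlapped. Neuron cells were called higher for Dync1i1 (edgeR adjusted p = 4.8e-05) and lower for Dync1i2 (edgeR adjusted p = 0.015); the Dync1i2 call was lost without neuron cell replicate 2 or 3 and without TMM scaling (adjusted p up to 0.0956). Microglia cells were called higher for Dync1i2 (edgeR adjusted p = 0.00231), a call that was lost without TMM scaling (adjusted p up to 0.179).

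Since these paralogs of 1 subunit were highest in different cell types, the 250 bases before their start sites are shown from RefSeq, on GRCm38.p6, a build older than the GRCm39 of the reads, so positions are not those of the read models. Dync1i1 lies at chr6:5725389-5725638 on the + strand, before its 1 listed start, and Dync1i2 at chr2:71211456-71211705 on the + strand, before the first of its 2 listed starts.
Dync1i1: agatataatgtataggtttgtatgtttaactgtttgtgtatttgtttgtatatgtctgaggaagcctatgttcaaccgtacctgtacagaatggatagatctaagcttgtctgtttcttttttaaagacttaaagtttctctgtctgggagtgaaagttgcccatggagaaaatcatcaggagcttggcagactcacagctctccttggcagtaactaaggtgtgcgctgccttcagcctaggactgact
Dync1i2: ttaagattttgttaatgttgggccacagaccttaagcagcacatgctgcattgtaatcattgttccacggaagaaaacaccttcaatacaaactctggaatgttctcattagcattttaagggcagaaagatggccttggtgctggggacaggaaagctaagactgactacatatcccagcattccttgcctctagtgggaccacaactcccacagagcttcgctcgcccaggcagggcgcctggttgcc
Neither window holds the GC box core GGGCGG or the letters TATAAA on either strand, so nothing is set in capitals. GGGCGG was found in 32.7% of all 32851 promoter windows of the RefSeq table, each read over the 250 bases before its start. It was found in 34 of the 53 windows of the motor genes (46 genes matched). TATAAA was found in 12.4% of all windows and in 5 of the 53. The Dync1i1 window is 40.8% G and C and the Dync1i2 window 48.4%. These are matches of letters and not sites of binding.

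Both intermediate chains fell in neuron sEVs. Dync1i1 stood at 28.2, 6.33 and 7.11 CPM in neuron sEVs, below every neuron cell library and 11.6 times lower (log2 -3.50 ± 0.97, edgeR adjusted p = 0.0128); the call was lost without neuron cell replicate 1 or 2 (adjusted p up to 0.0668). Dync1i2 stood at 46.4, 35.9 and 21.3 CPM in neuron sEVs, again with no overlap, and was 3.69 times lower (log2 -1.88 ± 0.38, edgeR adjusted p = 0.00127); this call was kept in all 26 alternative settings. In astrocyte sEVs Dync1i2 stood at 98.2, 146 and 130.4 CPM, below its cells, with a difference of -0.66 ± 0.35 (edgeR adjusted p = 0.205), and in microglia sEVs at 179, 427 and 444 CPM, on both sides of its cells.

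The light intermediate chains, which hold the cargo adaptors, did not move alike. Dync1li2 stood at 65.9, 41.6 and 45.2 CPM in astrocyte cells and 244, 262 and 305 CPM in astrocyte sEVs. It stood at 59.9, 59.7 and 82.1 CPM in neuron cells and 264, 222 and 293 CPM in neuron sEVs, and at 31.9, 45.3 and 48.1 CPM in microglia cells and 16.3, 32.999 and 80.5 CPM in microglia sEVs. In astrocytes and neurons every sEV library lay far above every cell library, whereas the microglia groups overlapped. The rise was 5.31 times in astrocytes (log2 2.41 ± 0.41, edgeR adjusted p = 0.000479) and 3.86 times in neurons (log2 1.95 ± 0.41, edgeR adjusted p = 0.00159). Both calls were kept in all 26 alternative settings. The microglia difference was 0.05 ± 0.44 (edgeR adjusted p = 1), but the difference between cell types was not called (interaction, edgeR adjusted p = 0.0577). Its paralog Dync1li1 was called in no sEV comparison with cells. It stood at 112, 101 and 19.7 CPM in microglia sEVs, higher than in the other sEVs (edgeR adjusted p = 0.0208), a call that was lost without microglia sEV replicate 1 or 2 (adjusted p up to 0.129).

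Dync1h1, the motor chain of cytoplasmic dynein, was read at low depth. It stood at 10.03, 23.5 and 25.4 CPM in astrocyte cells, 25.5, 5.66 and 6.87 in microglia cells and 26.8, 21.4 and 22.97 in neuron cells, and had 10, 0 and 9 reads in the sEVs of astrocytes, microglia and neurons. The mean fall over the 3 cell types was called (edgeR adjusted p = 0.0139), while the fall within each cell type was not. Dync2h1, the heavy chain of dynein-2, which moves cargo in cilia, had 64 reads in all and was not tested.

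Among dynein-2 subunits, Dync2li1, its light intermediate chain, was highest in astrocytes. It stood at 42.997, 34.6 and 40.97 CPM in astrocyte cells, 7.89, 22.96 and 11.5 in neuron cells and 9.58, 0 and 4.58 in microglia cells. Astrocyte cells were above all others, and were called higher (edgeR adjusted p = 0.0333); the call was lost in 7 of the 18 fits without 1 library, with no filter on low counts, with a replicate block and with full-splice and incomplete-splice matches alone (adjusted p up to 0.127). In sEVs it stood at 34.9, 21.3 and 42.99 CPM for astrocytes and 8.29, 4.22 and 7.11 for neurons, and had no read for microglia. Astrocyte sEVs exceeded the others (edgeR adjusted p = 0.00089), and this call was kept in all 26 alternative settings. Microglia sEVs were called lower than microglia cells, whose reads numbered 5 in all (edgeR adjusted p = 0.0454), and that call was lost in 16 of the 18 fits without 1 library, without TMM scaling, with no filter on low counts, with a replicate block, with full-splice and incomplete-splice matches alone and without the 2 libraries rich in Gm42047 (adjusted p up to 0.19). Dync2i2, an intermediate chain of dynein-2, was higher in neuron cells (edgeR adjusted p = 0.0355), a call that was lost in 8 of the 18 fits without 1 library and with a replicate block (adjusted p up to 0.0922). It stood at 50.5, 48.99 and 49.2 CPM in neuron cells and 92.9, 92.8 and 85.3 CPM in neuron sEVs; the sEV libraries lay above the cells but the difference was not called (log2 0.86 ± 0.78, edgeR adjusted p = 0.428).

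Of the dynein light chains, Dynlrb1, a roadblock subunit bound to the intermediate chain, rose in all 3 kinds of sEV. It stood at 107, 141 and 114 CPM in astrocyte cells and 338, 198 and 302 CPM in astrocyte sEVs. It stood at 109, 79.3 and 91.6 CPM in microglia cells and 212, 198 and 151 CPM in microglia sEVs. In neurons it stood at 175, 150.02 and 194 CPM in cells and 466, 416 and 769.7 CPM in sEVs. In each cell type the lowest sEV library was above the highest cell library. The rise was 2.31 times in astrocytes (log2 1.21 ± 0.29, edgeR adjusted p = 0.0058), 2.01 times in microglia (log2 1.01 ± 0.30, edgeR adjusted p = 0.0343) and 3.18 times in neurons (log2 1.67 ± 0.29, edgeR adjusted p = 0.000312). The neuron call was kept in all 26 alternative settings, the astrocyte call was lost with no filter on low counts (adjusted p up to 0.053), and the microglia call was lost in 10 of the 18 fits without 1 library and with no filter on low counts (adjusted p up to 0.153). The mean over cell types was 1.29 ± 0.17 (edgeR adjusted p = 9.5e-06), and this call was kept in all 26 alternative settings.

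Dynll1, a light chain that also binds many proteins outside dynein, was lowest in microglia. It stood at 83.01, 73.6 and 52.6 CPM in microglia cells, 225, 359 and 178 in astrocyte cells and 281, 260.2 and 222 in neuron cells. In sEVs it stood at 63.4, 19.4 and 59.2 CPM for microglia, 194, 122 and 171 for astrocytes and 345, 281 and 354 for neurons. Microglia overlapped neither other type in either fraction, and were called lower in cells (edgeR adjusted p = 0.000344) and in sEVs (edgeR adjusted p = 4.65e-05). Astrocyte cells were also called higher than the mean of the others (edgeR adjusted p = 0.0442), although they overlapped neuron cells, and that call was lost in 12 of the 18 fits without 1 library, with RLE size factors, with no filter on low counts, with a replicate block, with full-splice and incomplete-splice matches alone and without the 2 libraries rich in Gm42047 (adjusted p up to 0.307). Dynlt3, a Tctex-type light chain, ran the other way in sEVs, at 377, 344 and 454 CPM for microglia, 401, 146 and 289 for astrocytes and 149, 118 and 159.98 for neurons, and its cell levels were 232 ± 45.5, 233 ± 31.8 and 182 ± 54.7 CPM in that order. In this gene microglia sEVs were called higher (edgeR adjusted p = 0.0064) and neuron sEVs lower (edgeR adjusted p = 0.00364), both kept in all 26 settings.

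The Tctex-type copies Dynlt1b, Dynlt1c and Dynlt1f are near identical, and reads passed from 1 label to another between libraries of the same group. Astrocyte cell replicate 1 had 17 reads of Dynlt1b and 132 of Dynlt1c, and astrocyte cell replicate 2 had 111 and 0. Values of a single copy are therefore uncertain, and no call of one is given. Summed over the 3 copies, the level was 170.4 ± 43.4 CPM in astrocyte cells, 89.4 ± 28.5 in microglia cells and 158 ± 25.5 in neuron cells. The sEV sums were 159 ± 144, 156 ± 39.2 and 339 ± 98.9 CPM in the same order. The lowest neuron sEV library, at 226 CPM, was above the highest neuron cell library, at 177 CPM, while astrocyte sEVs ranged from 30.1 to 314 CPM.

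Dynactin, the cofactor that ties dynein to cargo, was measured at all 6 subunits found by the rule, which do not include its actin-related filament. Dctn3, a small subunit of the shoulder, was highest in neurons and rose in neuron sEVs. It stood at 402, 351 and 356 CPM in neuron cells and 867, 578 and 921 CPM in neuron sEVs, while no glial library exceeded 237 CPM. The neuron groups did not overlap, and the rise was 2.13 times (log2 1.09 ± 0.25, edgeR adjusted p = 0.00295); the call was lost with no filter on low counts (adjusted p up to 0.0587). Dctn5, of the pointed-end complex, stood at 70.2, 62.3 and 105 CPM in microglia cells and 112, 179 and 186 CPM in microglia sEVs. These did not overlap, and the rise was 2.004 times (edgeR adjusted p = 0.0374), but the call was lost in 12 of the 18 fits without 1 library and with no filter on low counts (adjusted p up to 0.184).

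Dctn1, the subunit that binds the intermediate chain and the microtubule, had few reads. It stood at 7.89, 10.7 and 9.85 CPM in neuron cells and 58.04, 48.5 and 46.2 CPM in neuron sEVs, with no overlap but no call (log2 2.40 ± 0.93, edgeR adjusted p = 0.0579). Neuron sEVs exceeded the other sEVs in Dctn1 (log2 3.16 ± 0.78, edgeR adjusted p = 0.00401). Of its 84 neuron sEV reads, 78 belonged to models with a retained intron, and with full-splice and incomplete-splice matches alone the difference was -1.05 with no call. Dctn2, the shoulder subunit dynamitin, stood at 54.3, 36.8 and 57.2 CPM in microglia cells, 80.3, 90.03 and 103 in astrocyte cells and 97.8, 122 and 112 in neuron cells. Microglia cells were called lower (edgeR adjusted p = 0.0243), a call that was lost without microglia cell replicate 1 or 2, with no filter on low counts and with full-splice and incomplete-splice matches alone (adjusted p up to 0.252) and had the opposite sign, at 1.55, in the last of these. Dctn4 and Dctn6 were called in no comparison.

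The form of the molecules differed between fractions as well as their number. A full-splice match is a read model whose splice junctions equal those of an annotated transcript, and a 3' fragment is an incomplete match that lacks junctions at the 5' end; both terms are those of the deposited table. Of motor gene reads, 3' fragments made up 17.6% ± 2.95 in neuron cells and 34.5% ± 4.54 in neuron sEVs. They made up 7.11% ± 3.62 in astrocyte cells and 14.9% ± 2.77 in astrocyte sEVs, and 2.03% ± 0.534 in microglia cells and 7.37% ± 3.97 in microglia sEVs. Every sEV library exceeded every cell library of its type. The share rose in all genes too, from 3.83% ± 1.38 to 9.94% ± 0.387 in neurons, from 2.69% ± 0.0772 to 7.14% ± 1.04 in astrocytes and from 1.60% ± 0.0293 to 4.67% ± 1.21 in microglia. These shares are a description, with no test, and the cause of the rise was not tested.

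The roles differed in this share. In neurons the kinesin-1 genes went from 2.76% ± 0.0674 3' fragments in cells to 54.98% ± 3.997 in sEVs, and their full-splice share from 51.1% ± 14.9 to 11.1% ± 5.25. The kinesin-3 genes were mostly 3' fragments already in neuron cells, at 81.1% ± 10.5, and stood at 96.1% ± 2.91 in neuron sEVs. The dynein heavy, intermediate and light intermediate chains went from 5.56% ± 1.37 to 17.1% ± 2.95, and dynactin from 1.17% ± 0.743 to 8.98% ± 5.90. The dynein light chains stayed full-splice, at 96.5% ± 0.966 of reads in neuron cells and 99.1% ± 0.608 in neuron sEVs, and from 96.97% ± 0.367 to 98.6% ± 1.30 as group means in the other 4 groups. Kinesin-2 reads in astrocyte and neuron cells were mostly 5' fragments, which lack junctions at the 3' end. Their share was 92.4% ± 2.03 and 72.8% ± 10.5 there, and fell to 19.5% ± 16.3 and 17.9% ± 4.45 in the sEVs of those types. Over all genes the mean 5' fragment share fell too, from 0.803% to 0.568% in astrocytes and from 1.17% to 0.466% in neurons. Kinesin-2 3' fragments went from 2.02% ± 3.50 to 57.2% ± 22.8 in astrocytes and from 2.22% ± 3.85 to 33.6% ± 33.7 in neurons. Single sEV libraries ranged from 31.9% to 76.3% in astrocytes and from 3.85% to 70.3% in neurons. The proportions of Kif3a, Kif3b and Kif3c differed between these libraries, so the kinesin-2 shares do not show a change within a single gene. Genes that lead a role set its share, since each read counts once.

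**Figure D4:**
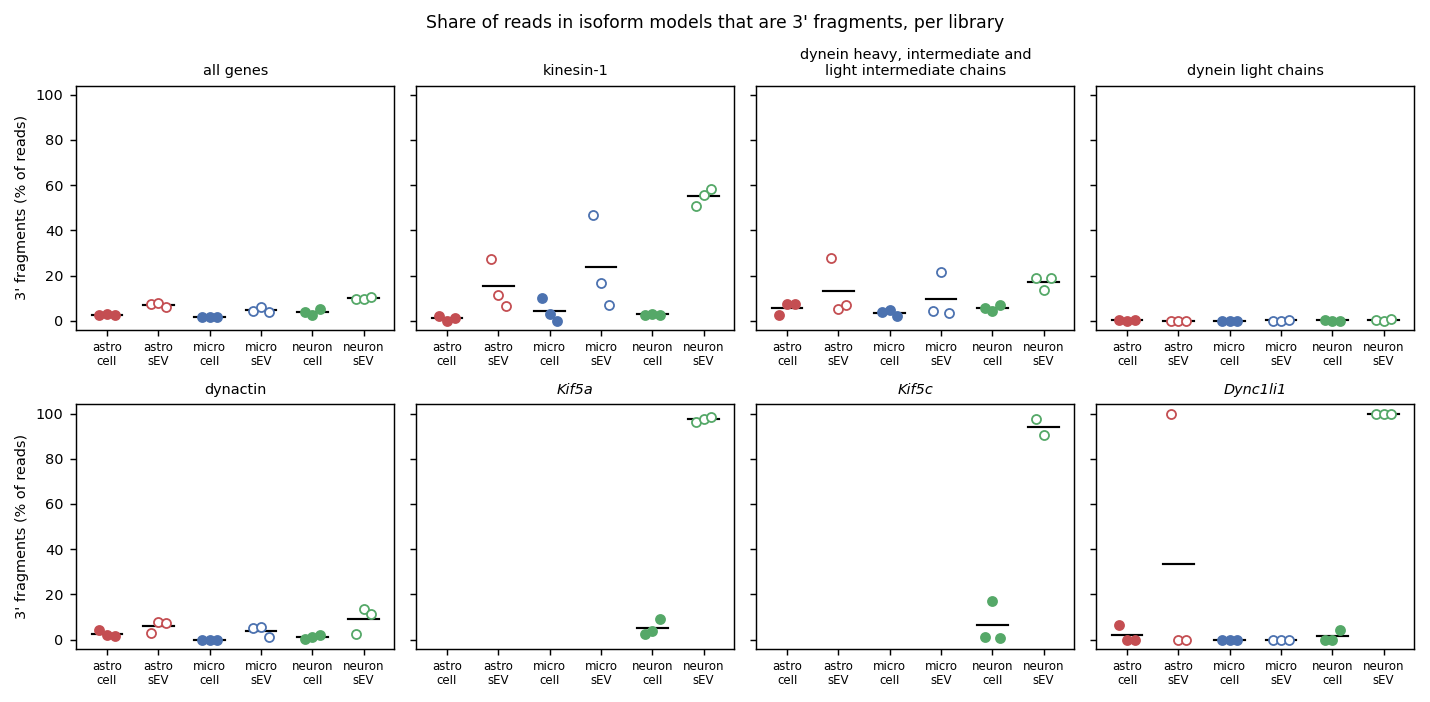
Share of reads in 3' fragment models (y axis, percent) in the 6 groups (x axis), for all genes, 4 roles of motor gene and Kif5a, Kif5c and Dync1li1; each point is a library, and sets with under 30 reads are left blank. Kinesin-1 points lie between 2.72% and 2.84% in neuron cells and between 50.6% and 58.5% in neuron sEVs. Light chain points lie near 0 in every group. The Kif5a and Kif5c panels show neuron groups alone, since every other group had under 30 reads.

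Kif5a shows the change within 1 gene. Its leading model in neuron cells was a full-splice match with 109 of 128, 66 of 78 and 109 of 124 reads in replicates 1, 2 and 3. In neuron sEVs that model had 15, 9 and 0 reads, and the lead passed to 3' fragment models with 758 of 808, 398 of 407 and 423 of 442 reads. All 3 sEV libraries thus held mostly 3' fragments, but under a different model in each, and 2 of the 3 leading models occurred in no other library. The rise of Kif5a in neuron sEVs therefore lay in 3' fragment reads, and the full-splice model alone was lower there, without a call (log2 -3.63, edgeR adjusted p = 0.0648). Kif5c went the same way, with 231 of 236, 46 of 64 and 262 of 268 reads on a full-splice model in neuron cells and none on it in neuron sEVs, where 3' fragments led in replicates 1 and 3 and replicate 2 had no read. Dync1li1 had all of its 21, 15 and 16 neuron sEV reads on 3' fragments and none on the full-splice model that was found in 14 libraries.

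Single read models were thinly shared between libraries. Of the 639 motor gene models, 431 (67.4%) occurred in 1 library only and held 13.8% of the motor reads, beside 64.5% of all 114425 models, which held 4.93% of all reads. Models found in both fractions were 129 (20.2%) and held 78.3% of the motor reads. Over all genes, 21.8% of models were found in both and held 90.5% of reads. Another 272 motor models (42.6%) occurred in sEVs alone and 238 (37.2%) in cells alone, beside 34.5% and 43.7% of all models. A test of a single model therefore depends on how reads were grouped into models in each library, and model counts were used beside gene sums only.

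Of 9370 models tested, 44 belonged to 25 motor genes, and their calls for the sEV difference were counted in each comparison. In astrocytes 3 of the 44 were called (6.82%; 1 higher, 2 lower), in microglia 1 (2.27%; higher), in neurons 8 (18.2%; 2 higher, 6 lower) and in the mean 7 (15.9%; 2 higher, 5 lower). Over all 9370 models the called share was 15.5% for astrocytes (3.22% higher, 12.3% lower), 9.36% for microglia (1.36% higher, 8% lower), 27.2% for neurons (6.26% higher, 20.9% lower) and 28% for the mean (6.92% higher, 21% lower). Together, 11 motor models were called in at least 1 of these 4 comparisons, and 7 without astrocyte cell replicate 1. The same combined share over all 9370 models was not computed, and the mean alone gave 28% there. The 11 models were 1 each of Dctn3, Dync1i1, Dync1li1, Dynlrb1, Kif3a, Kif5c and Klc1, and 2 each of Dctn5 and Dync1i2. The full-splice model of Dync1li1 had 42, 62 and 47 reads in neuron cells and 0 in neuron sEVs (edgeR adjusted p = 0.00255), and that of Kif5c 231, 46 and 262 reads against 0 (edgeR adjusted p = 0.00859). A full-splice model of Dync1i1 had 82, 102 and 52 reads in neuron cells and 0 in neuron sEVs (edgeR adjusted p = 0.00858). These 3 models were thus not detected in neuron sEVs, where other models of the same genes had 52, 199 and 24 reads.

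The leading Kif3a model, a 5' fragment found in all 18 libraries, had 72, 72 and 73 reads in neuron cells and 15, 7 and 11 in neuron sEVs (log2 -2.79 ± 0.39, edgeR adjusted p = 0.000196). In astrocytes it had 58, 61 and 44 reads in cells and 18, 9 and 9 in sEVs (log2 -2.22 ± 0.39, edgeR adjusted p = 0.00169). The model fell in astrocytes too, where the gene sum was not called. Of the Dctn5 models, one rose in microglia sEVs, from 19, 22 and 39 reads to 60, 92 and 101 (log2 1.03 ± 0.27, edgeR adjusted p = 0.0259). The other had 3 to 19 reads in 8 of the 9 cell libraries and none in the 9 sEV libraries, and fell in the mean (edgeR adjusted p = 0.000678). The leading Dynlrb1 model, a full-splice match, had 107, 90 and 107 reads in neuron cells and 259, 176 and 410 in neuron sEVs (log2 1.38 ± 0.30, edgeR adjusted p = 0.00471) and rose in astrocytes too (log2 0.95 ± 0.30, edgeR adjusted p = 0.0458). Dctn3 likewise rose in a full-splice model, from 249, 221 and 209 reads in neuron cells to 505, 269 and 450 in neuron sEVs (log2 0.76 ± 0.24, edgeR adjusted p = 0.0298).

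One Dync1i2 model was read in neurons alone, with 59, 25 and 17 reads in cells and 2, 0 and 0 in sEVs (edgeR adjusted p = 0.0357), and another fell in the mean (log2 -1.42 ± 0.49, edgeR adjusted p = 0.0407). A Klc1 model with an alternative 5' end had reads in 7 of the 9 cell libraries and none in any sEV library (mean, edgeR adjusted p = 0.00513).

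The proteins that choose cargo for these motors or switch them were followed as a list of 46 adaptors and regulators, of which 45 matched a gene label used here and 32 were tested. The alternative settings were computed for the motor genes alone, as were the read models of single genes. Calls in this list therefore carry no such check. In astrocyte sEVs 3 of the 32 changed. Among them Trak2, which links kinesin-1 and dynein to mitochondria, had no read in astrocyte cells and stood at 258, 355 and 215 CPM in astrocyte sEVs (edgeR adjusted p = 0.00058). Ktn1, the kinesin receptor kinectin, fell (log2 -2.90 ± 0.84, edgeR adjusted p = 0.0203). In neuron sEVs 4 changed: Mapk8ip1, the JIP1 scaffold that binds kinesin light chain, went from 45.7, 35.2 and 45.9 CPM in cells to 234, 207 and 159.98 CPM in sEVs (log2 2.24 ± 0.51, edgeR adjusted p = 0.00487), Capzb rose, and Arl8b and Fez1 fell. Arl8b, which recruits kinesin-1 to lysosomes, had a difference of -0.96 ± 0.30 (edgeR adjusted p = 0.0201), and Fez1, a kinesin-1 adaptor, of -1.04 ± 0.36 (edgeR adjusted p = 0.0361).

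In microglia sEVs 1 of the 32 changed, Actr1a, the actin-related filament of dynactin, which fell (log2 -1.03 ± 0.27, edgeR adjusted p = 0.0167). The mean sEV difference changed at 11, 4 higher and 7 lower; Cenpe, Capza1 and Fez2 were among the higher, and the lower were Hook2, Actr1b, Actr10, Ktn1, Arl8b, Fez1 and Tor1aip1. No interaction of the 32 was called by edgeR, beside 3.96% of all tested genes, which does not show that their differences were equal between cell types. Neuron cells differed from the other cells at 17 of the 32, 11 higher and 6 lower, microglia cells at 16, 8 in each direction, and astrocyte cells at 7, 3 higher and 4 lower. The shares of all tested genes given above for each comparison are the background of these counts too.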

How the data were processed

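Libraries were made from polyA RNA with a low-input cDNA kit and 10 cycles of reamplification, and sequenced on a PacBio Sequel II, per the labels' protocols. Minimap2 and GRCm39 are named in the submitters' processing notes; which program called isoforms, and on which annotation, is not given in the sources used here. Read counts per isoform and library were deposited by the authors, with a gene label and a structural category, and no value above 0 is under 2. The members and lists were chosen with earlier results of these data known.

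Counts were summed per gene. Genes were kept by filterByExpr, scaled by TMM and tested with edgeR 4.0.16 quasi-likelihood tests in R 4.3.3. There was 1 fit of 6 groups over 18 libraries, with Benjamini-Hochberg adjustment at 0.05. The procedure was tested on simulated data with the same spread for all genes and with changes in neuron sEVs alone. That setting is simpler than these data and does not cover their differences between cell types. CPM values use the TMM-scaled library size. Totals of 434298 to 683381 reads limit the precision of genes with few reads, and a count of 0 was taken as up to 3 reads per library. Reads carry no molecular identifiers, so such floors cover counting error only. Named genes were those called in any contrast, up to the 12 smallest adjusted p in each, and the highest gene of each role. Alternatives were DESeq2 1.42.0, RLE size factors, no TMM, no filter, a replicate block, full-splice and incomplete-splice matches alone, and each library left out in turn. Summing the Dynlt1 copies and leaving out the 2 libraries rich in Gm42047 were added after seeing the data. Samples that share a replicate number deviated together little, with correlations from -0.0815 to 0.0797 over all pairs of groups. In some pairs all 3 were above 0, among them neuron cells with neuron sEVs, at 0.0460, 0.0553 and 0.0568. The numbers were not taken as pairs, though such values cannot show whether cells and sEVs came from the same cultures. Promoter windows came from RefSeq, where 58 of the 63 genes matched by symbol in its gene table. One gene of the adaptor and regulator list is not reported here by name.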

Additional observations from a re-analysis of the deposited data

Results flagged for a closer look

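Among the 34 tested motor genes, Kif3a alone had a difference of sEVs from cells that was called as unequal between the 3 cell types. The test was edgeR's interaction test over cell type and fraction (adjusted p = 0.0447). That is 2.94% of the tested motor genes, beside 3.96% of all tested genes. A gene without this call was not shown to be equal between cell types. Kif3a fell in neuron sEVs, with a difference of -1.88 ± 0.35 on the log2 scale, beside -0.58 ± 0.33 in astrocytes and 0.27 ± 0.36 in microglia. The call was lost in 14 of the 18 fits without 1 library. It was also lost with no filter on low counts, with a replicate block and with full-splice and incomplete-splice matches alone. Leaving out the 2 libraries rich in Gm42047 ended it too. Over all settings that ended it, the interaction test gave an adjusted p of up to 0.294. As given above, the leading Kif3a model was called lower in the sEVs of astrocytes as well as neurons.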

How the results depend on the processing

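Of 97 calls of motor genes over the 11 comparisons, 46 were kept in every setting in which they could be fitted, up to 26 each. Another 51 were lost in at least 1, and 2 reversed. With full-splice and incomplete-splice matches alone, Dctn2 in microglia cells turned to 1.55 and Dctn1 in neuron sEVs against the other sEVs to -1.05; the same setting left 3 calls in astrocyte sEVs against the others (5 in the report). The count for the interaction, 1 in the report, was 5 in DESeq2, 2 with RLE size factors, 5 without TMM scaling, 4 with no filter, and 0 with the replicate block, with full-splice and incomplete-splice matches alone or without the 2 libraries rich in Gm42047. The count in astrocyte cells, 2 in the report, was 5 in DESeq2, 4 without TMM scaling, 1 without those 2 libraries, and 0 with the replicate block or with full-splice and incomplete-splice matches alone. With the replicate block the sEV against cell counts were 4 for astrocytes, 2 for microglia, 9 for neurons and 10 for the mean, those of microglia and neuron cells 12 and 13, those of astrocyte, microglia and neuron sEVs 5, 15 and 18, and that of isoforms 8; the samples share only a number. Leaving out 1 library gave 4 to 5, 0 to 4 and 6 to 12 calls for the sEVs of astrocytes, microglia and neurons against cells, 9 to 12 for the mean, 0 to 2 for the interaction, 0 to 3, 9 to 16 and 8 to 15 for astrocyte, microglia and neuron cells, 4 to 7, 14 to 20 and 14 to 18 for their sEVs, and 7 to 12 for isoforms. As a mean of the share per gene rather than over reads, the full-splice share was 57.4%, 69.8% and 57.0% in astrocyte, microglia and neuron cells and 43.1%, 58.3% and 41.3% in their sEVs, against 74.0%, 81.4%, 60.5%, 70.4%, 82.4% and 48.3%. The cause of these changes was not tested.

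Depth limits what can be said of the 29 genes not tested and of genes with a few reads per group. Single read models depend on how reads were grouped in each library.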
